A study of Mus musculus with 20 samples.

Results

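Cultured mouse hippocampal neurons that had received a brief pulse of glutamate were compared with cultures that had received medium alone. The comparison was between 10 of the 20 sequenced libraries, chosen by their labels. These were 5 glutamate libraries (50 µM glutamate for 2 min) and 5 control libraries (medium only for 2 min). The other 10 libraries came from cultures pulsed with glutamate plus 10 µM ZnCl2, or with glutamate plus the zinc chelator TPA at 10 µM. All 20 libraries were fitted in 1 model, so the other 10 also entered the estimate of spread behind the p-values. Every group came from C57BL6 embryos at embryonic day 18, with the hippocampi of 4 embryos pooled. All cultures, controls included, spent 10 days in vitro in Neurobasal medium with B27 and GlutaMAX. All had 4 µM cytosine arabinoside, which removes proliferating cells such as glia, between days 3 and 6. All were washed into an imaging medium with 1 mM MgCl2 for the pulse at room temperature, then returned to culture medium at 37 °C for 90 min before lysis. The comparison therefore reads mRNA that was present 90 min after the pulse, against controls that had been handled and washed in the same way. Each group is labelled as 5 biological replicates. With tissue pooled across embryos, p-values weigh group differences against the spread between cultures, estimated over all 4 groups.

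Glutamate opens AMPA and NMDA receptors, and the calcium that enters through NMDA receptors and voltage-gated channels activates CaM kinases and the ERK pathway. These act on CREB, SRF and MEF2 factors that are already bound near immediate early genes, which are transcribed without new protein synthesis. Many of those genes encode transcription factors, such as the FOS and JUN subunits of AP-1, the EGR and NR4A families and NPAS4, which go on to act on later genes such as Bdnf. Feedback genes, including MAP kinase phosphatases and Sprouty proteins, are induced alongside them and limit the same signal.

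Library totals were 36106575 to 39765787 counts in control and 35559330 to 40934630 in glutamate, and the 10 most abundant genes took 3.14% to 3.33% of each of the 10 libraries. Of 24419 genes in the table, 14411 passed the expression filter and were tested. Marker genes of glutamatergic neurons summed to 1789 to 2069 CPM (gene counts rescaled so that libraries of different depth compare) in control and 1705 to 2150.1 CPM in glutamate. Those of GABAergic neurons summed to 1283 to 1401 and 1096 to 1423 CPM, and those of astrocytes to 824 to 953 and 791 to 964 CPM. Microglial markers summed to at most 4.43 CPM in any of the 10 libraries, and 4 of the 8 were too low to be tested. The hemoglobin genes were at 0 counts. Most of the astrocyte sum was Slc1a2, at 568 to 769 CPM, while Gfap had 32.8 to 56.0 CPM and Aqp4 5.80 to 9.03 CPM. The cultures thus held neurons of both classes and astrocytes, in shares that these sums do not measure. None of the marker genes passed the adjusted threshold, and fewer cells of a type cannot be told apart from less RNA per cell in such bulk libraries.

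The response was small in number. In edgeR's quasi-likelihood test with a Benjamini-Hochberg adjusted threshold of 0.05, 6 of 14411 genes changed, or 0.0416%. Of these, 5 rose (0.0347%): Fosb, Fos, Klf4, Npas4 and Nfkbiz. One gene, Il1rap, fell (0.00694%). In all 6 the ranges of the 2 groups did not overlap, which was so for 76 genes with glutamate higher (0.527% of the genes tested) and 66 with glutamate lower (0.458%). At an unadjusted p under 0.05 there were 726 genes (5.04%), 455 higher and 271 lower (3.16% and 1.88%), and 721 would pass that limit if no gene differed. The median log2 fold change over all genes was -0.002. With edgeR's robust prior, chosen after seeing the data, 3 genes passed in place of 6, and Fos and Il1rap then had an adjusted p of 0.0502. DESeq2 called 14 genes, the 6 and 8 others: Cyr61, Jun, Myc, Bhlhe40, Tob1, Slc16a9, Slc7a4 and Rpph1. With the 10 libraries fitted alone, 3 passed, Fosb, Fos and Klf4.

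The promoters of 4 of the 5 genes that rose are shown, and these 4 encode transcription factors that are textbook targets of activity-dependent signalling. Nfkbiz, the other gene that rose, had no entry matched in RefSeq's table, so its promoter was not searched. Each run is the 250 bases before the transcription start in RefSeq's table for GRCm38.p6 (mm10), written 5′ to 3′ on the strand of the gene. Capitals mark the core of the CREB motif, TGACG or its reverse complement CGTCA, found by a search of both strands. The window of Fosb is chr7:19310046-19310295 on the minus strand, that of Fos chr12:85473640-85473889 on the plus strand, that of Klf4 chr4:55532476-55532725 on the minus strand and that of Npas4 chr19:4989972-4990221 on the minus strand.
Fosb: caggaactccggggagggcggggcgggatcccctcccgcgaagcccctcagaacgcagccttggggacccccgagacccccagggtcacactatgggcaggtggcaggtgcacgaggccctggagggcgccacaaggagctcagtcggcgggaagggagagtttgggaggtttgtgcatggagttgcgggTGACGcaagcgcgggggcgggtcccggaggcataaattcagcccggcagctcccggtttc
Fos: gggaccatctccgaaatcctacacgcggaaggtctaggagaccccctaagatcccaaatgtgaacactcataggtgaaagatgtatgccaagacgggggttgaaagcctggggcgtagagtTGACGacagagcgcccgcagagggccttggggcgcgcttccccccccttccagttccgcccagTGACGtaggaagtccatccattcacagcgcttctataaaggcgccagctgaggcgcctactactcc
Klf4: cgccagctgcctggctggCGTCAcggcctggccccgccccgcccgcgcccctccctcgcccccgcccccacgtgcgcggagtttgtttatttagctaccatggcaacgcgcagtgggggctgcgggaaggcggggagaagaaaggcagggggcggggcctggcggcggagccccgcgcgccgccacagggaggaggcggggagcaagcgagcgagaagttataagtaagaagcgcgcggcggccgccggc
Npas4: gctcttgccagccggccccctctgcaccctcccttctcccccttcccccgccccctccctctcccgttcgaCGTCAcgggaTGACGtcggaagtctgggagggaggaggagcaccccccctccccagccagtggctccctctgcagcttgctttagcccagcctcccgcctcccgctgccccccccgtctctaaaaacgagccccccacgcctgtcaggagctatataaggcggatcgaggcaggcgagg

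All 4 windows held at least 1 such core, against 17.7% of the 32817 promoters in the table. The core began 60 bases upstream of the start in Fosb and 232 in Klf4. It began 129 and 66 bases upstream in Fos, and 179 and 169 in Npas4. The full palindrome TGACGTCA, which contains the core, was in none of the 4 and in 1.55% of all promoters. A CArG box, the motif bound by SRF, was found in 1.47% of all promoters and in none of these windows. Sequence farther upstream was not searched, so the search cannot show whether these genes have a CArG box outside the windows. The κB motif of NF-κB matched in Fosb, 188 bases upstream, and in Fos, 214 bases upstream, and in 3.9% of all promoters. An AP-1 site and an EGR site were also searched for. They were in none of the 4 windows and in 6.75% and 0.536% of all promoters. The shares over all promoters were not matched for base content. The window of Il1rap, the gene that fell, held no core. The start of Fos in that table lies 11 bases from the start of the counted gene. A match describes letters in the window and is not a measured binding site.

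Among the AP-1 subunits, Fosb and Fos rose. Fosb (chromosome 7, 19302696 to 19310045, minus strand) encodes a subunit of AP-1 whose products include the long-lived ΔFosB form. Its level in control replicates 1 to 5 was 8.47, 7.17, 8.70, 7.45 and 8.47 CPM, and in glutamate replicates 1 to 5 it was 20.7, 17.1, 19.4, 22.02 and 14.3 CPM. Every glutamate library lay above every control library, with glutamate 5 the lowest. Fosb was 2.32-fold higher with glutamate, at 18.7 ± 3.07 against 8.05 ± 0.693 CPM (SD, n = 5 each). Its log2 fold change was 1.22 (SE 0.12, edgeR adjusted p = 6.92e-06).

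Fos (chromosome 12, 85473901 to 85477270, plus strand) encodes the AP-1 subunit most used as a marker of recently active neurons. Control replicates 1 to 5 had 40.1, 33.2, 31.0, 31.7 and 39.3 CPM, and glutamate replicates 1 to 5 had 82.1, 71.8, 75.1, 102 and 48.7 CPM. The groups did not overlap, but glutamate 4 had more than the other 4 and glutamate 5 stood closer to control 1 than to any other glutamate library. Fos was 2.17-fold higher (log2 fold change 1.12, SE 0.17, edgeR adjusted p = 0.00659). Its coefficient of variation was 25.4% in glutamate and 12.3% in control.

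The other 5 AP-1 subunits did not pass in edgeR. DESeq2 and limma-voom with library weights each called 3 of the 7, adding Jun (adjusted p = 0.0495 and 0.00945), and edgeR's robust prior called 1. Junb had 18.3, 17.9, 19.2, 19.1 and 22.8 CPM in control and 26.1, 20.7, 21.4, 39.4 and 28.0 CPM in glutamate. Glutamate 4 was again the highest, and control 5 lay above glutamate 2 and 3. Its log2 fold change was 0.48 (SE 0.12, edgeR adjusted p = 0.480). Jun was 0.22 higher on the log2 scale (SE 0.05, edgeR adjusted p = 0.325), with 86.7 to 96.0 CPM in control and 95.2 to 120 CPM in glutamate. Fosl2 had 0.08 (SE 0.05), and Jund 0.03 (SE 0.07) and the low-level Fosl1 0.67 (SE 0.53), both named after their values were seen. All 7 subunits had a positive log2 fold change, with a median of 0.48, where 48.9% of all genes had one.

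Klf4 (chromosome 4, 55527137 to 55532475, minus strand) encodes a zinc-finger transcription factor that restrains axon growth in hippocampal and retinal neurons. Control replicates 1 to 5 had 0.775, 0.867, 0.687, 0.736 and 0.510 CPM, and glutamate replicates 1 to 5 had 2.38, 1.82, 1.77, 2.87 and 1.70 CPM. All glutamate libraries were at or above 1.70 CPM and no control library reached 1 CPM. The gene had the largest fold of the genes that passed, 2.94-fold (log2 fold change 1.56, SE 0.18, edgeR adjusted p = 0.000127), from a low level. The other 9 Krüppel-like factors did not pass, 4 had a positive log2 fold change, and the median of all 10 was 0.01.

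Npas4 (chromosome 19, 4984355 to 4989971, minus strand) encodes a neuronal transcription factor induced by calcium entry, with a part in forming inhibitory synapses. Its values were 31.6, 27.3, 27.5, 25.7 and 32.7 CPM in control and 53.1, 44.8, 47.4, 75.0 and 39.9 CPM in glutamate. As for Fos, glutamate 4 was the highest and glutamate 5 the lowest of its group, and all 5 lay above control. Npas4 was 1.80-fold higher (log2 fold change 0.84, SE 0.15, edgeR adjusted p = 0.0346). That call depended on the libraries: it held when glutamate 2 or glutamate 5 was left out, and was lost without any 1 of the other 8, with an adjusted p of at most 0.156.

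Nfkbiz (chromosome 16, 55811377 to 55838641, minus strand) encodes IκBζ, a nuclear member of the IκB family that modulates NF-κB. It had 1.55, 1.79, 1.48, 1.66 and 1.66 CPM in control and 2.60, 2.28, 2.53, 2.62 and 2.46 CPM in glutamate. Unlike Fos and Npas4, its 5 glutamate values lay close together, and its coefficient of variation was 5.44% in glutamate and 7.30% in control. Nfkbiz was 1.53-fold higher (log2 fold change 0.62, SE 0.10, edgeR adjusted p = 0.00659), but the adjusted p was 0.0844 when the 10 libraries were fitted alone. Of the 11 tested genes of the NF-κB family and its inhibitors all had a positive log2 fold change, with a median of 0.21, and 1 passed. Nfkb1, which encodes the p50 precursor, had a log2 fold change of 0.24 (edgeR adjusted p = 0.754), and Nfkbia, which encodes the main cytoplasmic inhibitor, had 0.00 (named after its values were seen).

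Il1rap (chromosome 16, 26581705 to 26725147, plus strand) encodes the accessory protein of the interleukin-1 receptor, which also organizes synapses in a neuronal form. It had 7.73, 7.60, 6.99, 7.501 and 7.58 CPM in control and 5.92, 5.48, 5.77, 6.27 and 5.63 CPM in glutamate. The groups did not overlap, and the spread was narrow in both. Il1rap was 1.29-fold lower with glutamate (log2 fold change -0.36, SE 0.07, edgeR adjusted p = 0.0346). When libraries were left out in turn, the fall passed without control 3 and without glutamate 4, and was lost without any 1 of the other 8, with an adjusted p of at most 0.164.

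**Figure D1:**
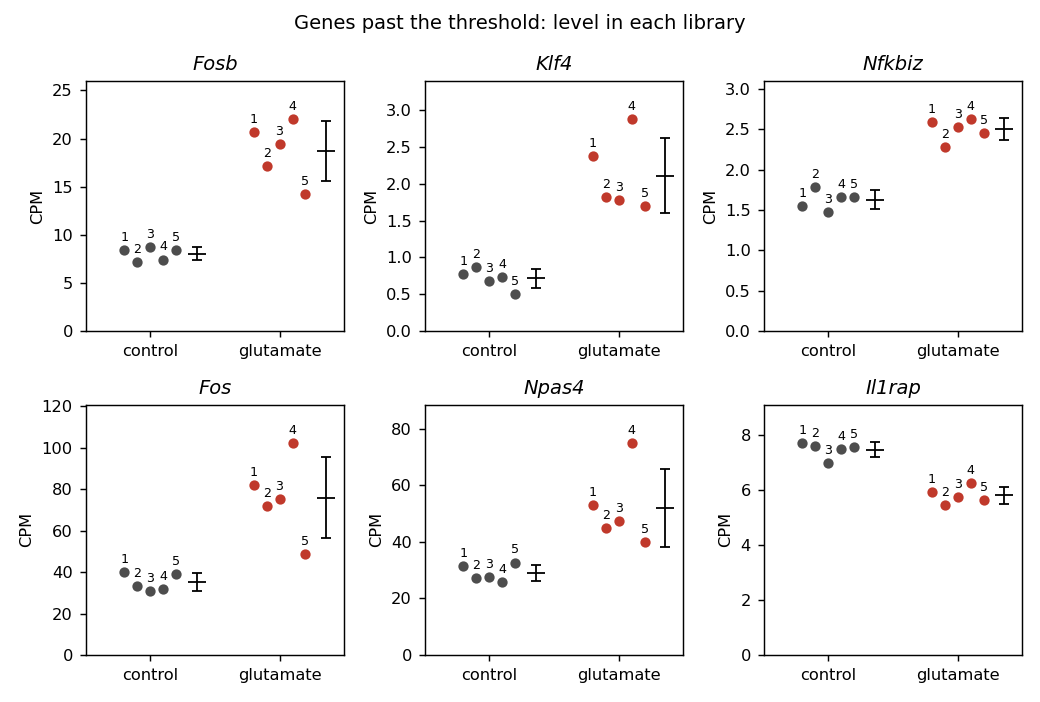
CPM of the 6 genes past the threshold in each of the 5 control and 5 glutamate libraries, with replicate numbers above the points; bars beside the points are the mean and SD. No gene's groups overlap, and glutamate 4 and 5 are the extremes of the glutamate group for Fos, Fosb, Klf4 and Npas4.

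Per length, in the deposited TPM (counts divided by gene length and rescaled within each library), Fos was the most abundant of the 6. Its mean was 50.3 ± 6.47 TPM in control and 110.1 ± 27.8 TPM in glutamate (SD, n = 5 each). Npas4 followed with 26.5 ± 2.88 and 48.1 ± 12.4 TPM, and Fosb with 6.40 ± 0.579 and 15.04 ± 2.51 TPM. Il1rap (2.65 ± 0.108 and 2.08 ± 0.105 TPM), Nfkbiz (1.26 ± 0.0878 and 1.95 ± 0.110 TPM) and Klf4 (0.705 ± 0.131 and 2.098 ± 0.493 TPM) were low. In glutamate the means of Il1rap, Nfkbiz and Klf4 differed by less than the SD of Klf4, so their order there is not resolved.

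The EGR factors, zinc-finger proteins induced through SRF and ERK signalling, did not pass. Of the 6 genes of the EGR and NAB list, 0 were called by edgeR, DESeq2 or limma-voom. With glutamate higher, 3 had an unadjusted p under 0.05, against 3.16% of all genes. Egr1 had 31.4, 29.3, 35.1, 35.9 and 41.8 CPM in control and 42.5, 34.7, 43.5, 57.1 and 48.9 CPM in glutamate. Glutamate 2 lay within the control range and the other 4 above it. Its log2 fold change was 0.39 (SE 0.11, edgeR adjusted p = 0.673). Egr2, which ran from 0.997 to 1.45 CPM in control and from 1.45 to 2.27 CPM in glutamate, had 0.61 (SE 0.15, edgeR adjusted p = 0.454).

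Egr4 was the EGR factor whose groups did not overlap, at 11.6 to 12.5 CPM in control and 12.6 to 15.8 CPM in glutamate, for a log2 fold change of 0.22 (SE 0.08, edgeR adjusted p = 0.909). Egr3 was the EGR factor with a negative log2 fold change. Its control values were 30.0, 32.9, 41.0, 44.0 and 40.5 CPM, and its glutamate values 29.5, 29.9, 31.2, 29.5 and 49.7 CPM. Glutamate 1, 2 and 4 lay just below the lowest control, glutamate 3 at the low end of the control range and glutamate 5 above all controls. Its log2 fold change was -0.15 (SE 0.16), and -0.33 without glutamate 5.

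Of the 3 NR4A orphan nuclear receptors, 0 passed in edgeR, DESeq2 or limma-voom and 1 with library weights in limma-voom; 1 had an unadjusted p under 0.05. Nr4a1, the most rapidly induced of them, had 24.3, 23.5, 18.2, 18.3 and 20.7 CPM in control and 32.7, 31.4, 34.4, 39.6 and 18.0 CPM in glutamate. Glutamate 1 to 4 were above every control library, and glutamate 5 was below every one. The log2 fold change was 0.57 (SE 0.18, edgeR adjusted p = 0.804) with all libraries and 0.72 (edgeR adjusted p = 0.112) without glutamate 5. Nr4a2 (31.8, 34.0, 32.8, 31.2 and 20.5 CPM in glutamate against 26.0 to 30.9 in control) and Nr4a3 (382, 412, 404, 354 and 326 CPM against 346 to 380) also had their lowest glutamate value in glutamate 5.

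A further 20 early transcription factors had a median log2 fold change of 0.21, and Npas4 was the 1 that passed in edgeR. DESeq2 and limma-voom with library weights each called 3, Npas4, Bhlhe40 and Myc, while limma-voom without weights and edgeR's robust prior called 0. Bhlhe40, a circadian repressor, ran from 12.3 to 14.7 CPM in control and from 15.5 to 18.8 CPM in glutamate (log2 fold change 0.26, edgeR adjusted p = 0.294). Myc ran from 18.4 to 21.7 and from 22.5 to 24.8 CPM (0.25, edgeR adjusted p = 0.305). In DESeq2 their adjusted p was 0.0495 (Bhlhe40) and 0.0429 (Myc). Neither gene's groups overlapped, and both were about as tight with glutamate as without. Ier2 had 15.8, 14.6, 15.3, 19.97 and 12.8 CPM in glutamate, where control stayed between 12.9 and 13.6 CPM, so glutamate 4 stood far above control and glutamate 5 just below it.

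Pooled, the 46 early transcription factors (AP-1, EGR with NAB corepressors, NR4A, Krüppel-like and the further factors) had a median log2 fold change of 0.15. In edgeR 4 rose and 0 fell, where 0.0347% of all genes tested rose. DESeq2 called 7 of the 46, limma-voom 3, limma-voom with library weights 8 and edgeR's robust prior 2. At an unadjusted p under 0.05 with glutamate higher there were 16 of 46, these 4 included, against 3.16% of all genes. A positive log2 fold change was found in 34 of 46, against 48.9% of all genes. In 7 of the 46 the glutamate libraries all lay above control, against 0.527% of all genes. The lists were chosen with earlier results of these data known, so these shares are not an independent test.

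**Figure D2:**
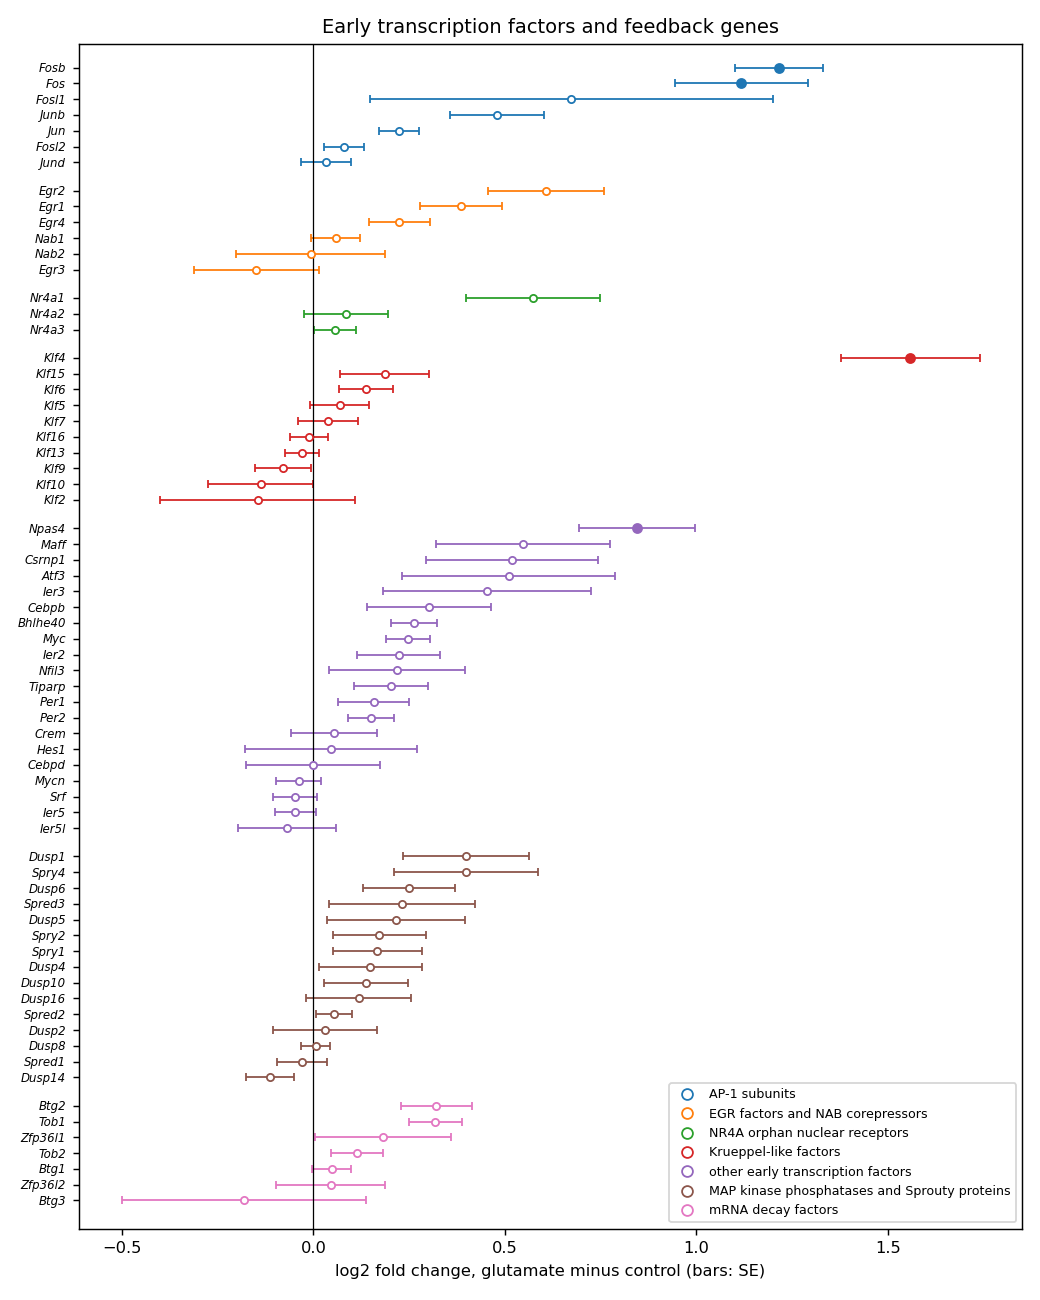
Log2 fold change, glutamate minus control, of the tested early transcription factors and feedback genes with the standard error; filled points passed the adjusted threshold and open points did not. Fosb, Fos, Klf4 and Npas4 are the filled points, and most open points lie right of 0.

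The MAP kinase phosphatases and Sprouty proteins, which act against ERK signalling, had a positive log2 fold change in 13 of 15, with a median of 0.15. Of the 15, 3 had an unadjusted p under 0.05 with glutamate higher, against 3.16% of all genes, and 0 passed in edgeR, DESeq2 or limma-voom. Dusp1 had 21.1, 17.5, 15.9, 15.5 and 18.6 CPM in control and 25.3, 22.03, 23.2, 30.6 and 15.7 CPM in glutamate (log2 fold change 0.40, SE 0.16, edgeR adjusted p = 0.939). Spry4 had 24.5, 25.0, 27.3, 25.8 and 12.1 CPM in glutamate against 15.3 to 21.8 CPM in control (log2 fold change 0.40, SE 0.19, edgeR adjusted p = 0.939). In both genes glutamate 1 to 4 lay above every control library, and glutamate 5 lay at or below the low end of control.

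Of the 7 tested mRNA decay factors, 0 passed in edgeR and 1, Tob1, in DESeq2. In Tob1 and Btg2, which promote removal of poly(A) tails, every glutamate library lay above control, as in 0.527% of all genes. Tob1 ran from 12.4 to 14.5 CPM in control and from 14.98 to 18.8 CPM in glutamate (log2 fold change 0.32, SE 0.07, edgeR adjusted p = 0.214). Btg2 ran from 7.04 to 7.83 and from 8.07 to 11.2 CPM (0.32, SE 0.09, edgeR adjusted p = 0.757). Sik1, a kinase induced by CREB that in turn restrains CREB's coactivators, was tight in both groups, at 24.6 to 25.6 and 26.4 to 29.9 CPM (0.18, SE 0.04, edgeR adjusted p = 0.454, and 0.0313 in limma-voom with library weights). All 15 small GTPases, kinases and RGS proteins of the list induced by activity had a positive log2 fold change, with a median of 0.17. In edgeR, DESeq2 and limma-voom 0 of them passed, and 3 had an unadjusted p under 0.05, against 3.16% of all genes with glutamate higher. With library weights limma-voom called 1 of them, Trib1 (adjusted p = 0.0378). Trib1, a pseudokinase that targets C/EBP factors for degradation, had 14.9, 12.8, 14.3, 15.7 and 10.9 CPM in glutamate against 9.68 to 12.2 CPM in control (0.32, SE 0.10, edgeR adjusted p = 0.783), with glutamate 5 inside the control range. Gadd45g, a stress-inducible growth arrest gene, had 14.7, 13.6, 13.5, 24.3 and 15.05 CPM against 11.5 to 12.9 CPM (0.42, SE 0.13, edgeR adjusted p = 0.783), with every glutamate library above control and glutamate 4 far above the rest.

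Genes that encode synaptic and secreted effectors, the later products of activity, had a median log2 fold change of 0.07. Of the 24, 0 passed in edgeR, DESeq2 or limma-voom, and 2 had an unadjusted p under 0.05 with glutamate higher, against 3.16% of all genes. Arc, which encodes a cytoskeletal protein that drives removal of AMPA receptors, had 3.41, 2.96, 4.12, 3.41 and 4.13 CPM in control and 4.19, 3.82, 3.77, 6.15 and 4.80 CPM in glutamate (log2 fold change 0.34, SE 0.12, edgeR adjusted p = 0.939). Bdnf, which encodes the neurotrophin, had 148, 139, 122, 129 and 139 CPM in control and 154, 172, 156, 181 and 102 CPM in glutamate (0.17, SE 0.12, edgeR adjusted p = 0.939). Glutamate 1 to 4 lay above every control library and glutamate 5 lay below every one. Homer1, counted over the whole gene so that the short activity-induced form is not separated, had 0.00 (SE 0.05), at 95.5 to 104 CPM in control and 93.6 to 103 CPM in glutamate.

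Several further genes, named for their small p-values or for their calls in the authors' table, did not pass in edgeR. Cyr61, a secreted matricellular protein, had 3.41, 3.04, 2.77, 3.63 and 4.75 CPM in control and 7.25, 5.11, 6.05, 10.5 and 5.43 CPM in glutamate. The groups did not overlap, glutamate 4 was again the highest, and the log2 fold change was 0.97 (SE 0.20, edgeR adjusted p = 0.134). Slc16a9, a monocarboxylate transporter, had 0.70 (SE 0.15, edgeR adjusted p = 0.214), with glutamate 4 (2.75 CPM) inside the control range of 1.81 to 2.95 CPM. On the lower side, Slc7a4, a cationic amino acid transporter family member, ran from 79.6 to 83.3 CPM in control and from 69.5 to 76.0 CPM in glutamate (-0.16, SE 0.04, edgeR adjusted p = 0.330). Rpph1, the RNA of RNase P, averaged under 1 CPM in both groups and had -1.18 (SE 0.24, edgeR adjusted p = 0.139).

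The authors' deposited table for this comparison called 11 of 20174 genes (0.0545%), among them the 6 above. The other 5 in the authors' deposited table were Cyr61, Tob1, Slc16a9, Slc7a4 and Rpph1. Its fold changes are shrunken: the authors' deposited table gives Fosb 0.59, Klf4 0.40 and Fos 0.28 on the log2 scale.

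The 16 endoplasmic reticulum chaperones all had a positive log2 fold change (median 0.17), as did the 12 ATF4 stress response genes (median 0.19). At an unadjusted p under 0.05 with glutamate higher they counted 5 of 16 and 1 of 12, against 3.16% of all genes, so that the single ATF4 gene is near the background, and edgeR, DESeq2 and limma-voom called 0 of either list. Creld2, a chaperone, had 0.31 (edgeR adjusted p = 0.939) at 9.67 to 11.5 CPM in control and 11.9, 15.8, 12.5, 16.0 and 9.96 CPM in glutamate. The 8 zinc-responsive genes and the 14 p53 and apoptosis genes had medians of -0.03 and 0.01, with 0 below an unadjusted p of 0.05. The calcium channel and CaM kinase genes leaned to lower values, with 6 of 26 positive and a median of -0.04. So did the GABA-A receptor subunits, with 1 of 13 positive and a median of -0.06, where 48.9% of all genes were positive. The lean differed by library. The calcium channel and CaM kinase median was -0.19 in glutamate 4, -0.06 to -0.02 in glutamate 1 to 3 and 0.09 in glutamate 5. The GABA-A median was -0.22 in glutamate 4 and -0.08 to -0.02 in the others. In edgeR, DESeq2 and limma-voom 0 members of either list passed. At an unadjusted p under 0.05 the lists held 0 and 1, the 1 being Gabra3 (-0.17), against 5.04% of all genes in either direction.

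The libraries of the glutamate group were not alike. Over all genes tested, the median SD of log2 CPM was 0.123 in glutamate and 0.077 in control, and the SD was larger in glutamate for 75.3% of genes. The zinc libraries had the same 0.123 and the TPA libraries 0.098. For the 46 early transcription factors the median SD was 0.247 in glutamate and 0.143 in control, with 40 of 46 wider in glutamate. It was 0.226 with zinc and 0.112 with TPA. The SDs were described and were not tested.

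**Figure D3:**
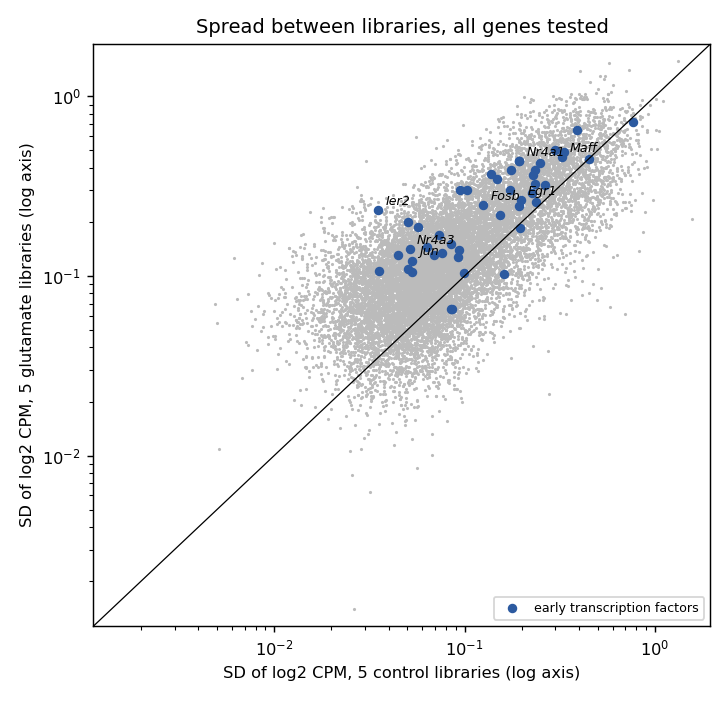
SD of log2 CPM over the 5 control libraries (horizontal, log axis) and over the 5 glutamate libraries (vertical, log axis) for every gene tested, in grey, and the 46 early transcription factors, in blue; the line marks equal SD. Most points lie above the line, 75.3% of all genes and 40 of the 46.

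Glutamate 4 and glutamate 5 lay farthest from their group. Their root mean square deviation from the group mean over all genes was 0.24 and 0.249 on the log2 scale, against 0.168 to 0.182 in glutamate 1 to 3 and 0.155 to 0.172 in control. In the zinc group the libraries numbered 4 and 5 also deviated most, at 0.217 and 0.239 against 0.151 to 0.193 in zinc 1 to 3. Over the 14411 genes, which share library and depth and are not replicates, the deviations of glutamate 5 and zinc 5 correlated at 0.5, and those of glutamate 4 and zinc 4 at 0.063. Glutamate 4 also had the fewest genes detected, 16996 against 17208 to 17354 in the other 9 libraries. With both left out, 3 glutamate libraries remained against all 5 control libraries. The median SD over all genes was then 0.072 and that of the early transcription factors 0.095, and 45.1% of genes were wider than in control. Without glutamate 4 alone the early factors' median SD was 0.204, and without glutamate 5 alone 0.141. Leaving out the libraries that deviate most lowers the SD by design, so these values are a description and the source of the spread was not tested.

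Glutamate 4 held the highest value and glutamate 5 the lowest for many early genes. Glutamate 4 was the highest of its group in 20 of the 46 early transcription factors (43.5%, against 29.5% of all genes), and glutamate 5 was the lowest in 24 (52.2%, against 23.6%). In glutamate 5, 22 of the 46 lay below the control mean, which was so for 50.5% of all genes. Klf4 and Fosb were high in this library too: their log2 difference from the control mean was 1.21 and 0.83 in glutamate 5, and 1.27 to 1.95 and 1.09 to 1.45 in the other 4. For Fos the difference was 0.48 in glutamate 5 and 1.55 in glutamate 4.

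**Figure D4:**
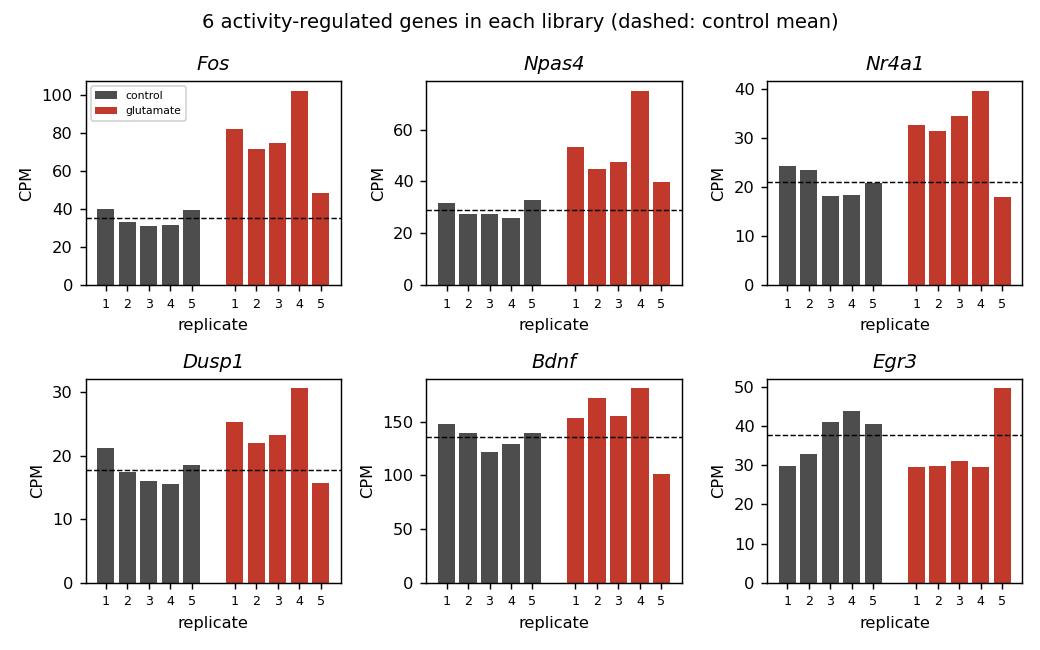
CPM of Fos, Npas4, Nr4a1, Dusp1, Bdnf and Egr3 in each library, control in grey and glutamate in red, with the control mean dashed. Glutamate 5 is the lowest glutamate library in the first 5 genes and the highest in Egr3, where it reaches 49.7 CPM.

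The lists moved in different directions in these 2 libraries. In glutamate 5 the median log2 difference from the control mean was -0.26 for the MAP kinase phosphatases and Sprouty proteins (13 of 15 below it) and -0.28 for synaptic and secreted effectors (18 of 24). It was -0.10 for both the endoplasmic reticulum chaperones (15 of 16) and the ATF4 genes (11 of 12), and -0.21 for the NR4A receptors, all 3 of which lay below. In the same library the EGR and NAB list had a median of 0.46. Vgf, which encodes a secreted neuropeptide precursor (named after its values were seen), had 376, 404, 389, 441 and 199.9 CPM in glutamate 1 to 5 against 259 to 385 CPM in control.

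In glutamate 4 the AP-1 list had a median of 1.02, and the synaptic and secreted effectors 0.32, with 17 of 24 the highest of their group. Receptor and channel lists were low in that library: -0.16 for ionotropic glutamate receptor subunits, -0.23 for metabotropic ones, -0.22 for GABA-A subunits and -0.19 for calcium channel and CaM kinase genes. Single calcium channel and CaM kinase genes ran from -0.80 to 0.16 there, with 21 of 26 below the control mean. The vesicle release genes were low as well, at -0.10 with 15 of 20 below it, so the pattern was not confined to receptors and channels. Grin2b, which encodes the GluN2B subunit of the NMDA receptor, had 235, 152, 200, 61.0 and 133 CPM in glutamate 1 to 5, against 101 to 144 CPM in control. Glutamate 4 lay below every control library, while glutamate 1, 2 and 3 lay above them.

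**Figure D5:**
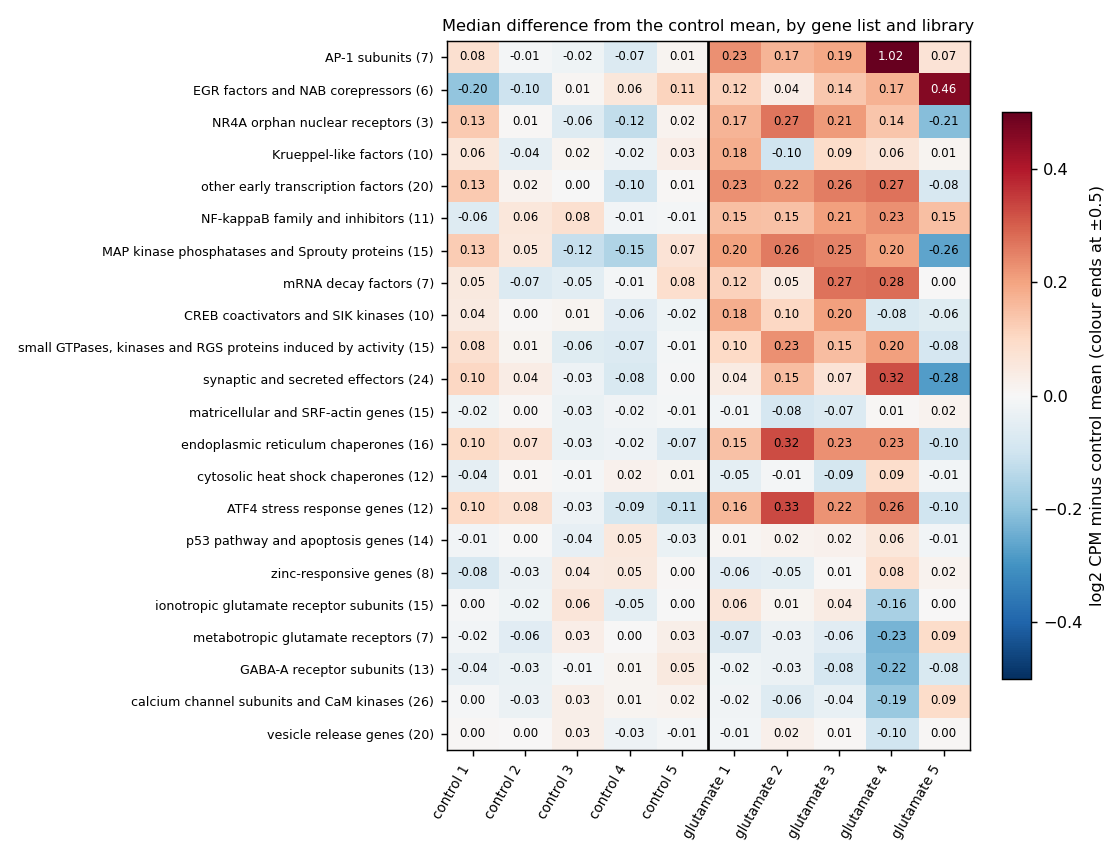
Median over each gene list of log2 CPM minus the mean of the 5 control libraries, for each library; the number of tested genes is in parentheses, red is higher and blue is lower. Glutamate 4 is high for AP-1 (1.02), and glutamate 5 is low for phosphatases and Sprouty proteins (-0.26) and secreted effectors (-0.28).

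Cell type markers moved with these 2 libraries as well. The summed GABAergic markers were 1096 CPM in glutamate 5 against 1313 to 1423 in glutamate 1 to 4 and 1283 to 1401 in control. The summed glutamatergic markers were 2150.1 CPM in glutamate 5, against 1705 to 1798 in glutamate 1 to 4 and 1789 to 2069 in control. The glutamatergic list did not move as a whole. Camk2a had 831 CPM in glutamate 5 against 584 to 646 in glutamate 1 to 4. Slc17a6 (37.2 against 41.1 to 51.8 CPM) and Neurod1 (28.4 against 28.6 to 32.5 CPM) were lowest in glutamate 5. Markers of Cajal-Retzius cells, early-born neurons that secrete reelin, summed to 716 CPM in glutamate 4 and 661 CPM in glutamate 5, against 880 to 953 CPM in glutamate 1 to 3 and 789.8 to 995 CPM in control. Those sums were mostly Reln, which GABAergic interneurons express too, with 698 and 642 CPM in the 2 libraries against 857 to 929.6 CPM in glutamate 1 to 3. Ndnf was lower as well (15.6 and 15.8 against 19.4 to 21.0 CPM), and Trp73 was not (1.48 and 1.52 against 1.35 to 1.56 CPM), so the list did not move as a whole. Of the RNA quality lists, replication-dependent histones summed to 56.6 CPM in glutamate 4 and 37.6 CPM in glutamate 5, against 40.02 to 43.3 CPM in glutamate 1 to 3 and 41.6 to 45.4 CPM in control. Nuclear-retained RNAs summed to 2257 and 2435 CPM in those 2 libraries and to 2213 to 2964 CPM in the other 3. Within that list Malat1 had 875, 492, 743, 334 and 446 CPM in glutamate 1 to 5, against 415 to 487 CPM in control. The part of cell makeup or RNA quality in the spread was not tested.

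The 6 genes were also set beside the cultures given glutamate with zinc or with TPA, which share the glutamate libraries as their reference. Because the 6 were picked for their values in those same libraries, differences back toward control are partly built in. Of 14411 genes, 0 passed in either comparison (0% each) in edgeR, and 883 (6.13%) and 1052 (7.3%) had an unadjusted p under 0.05. With zinc, the log2 difference from glutamate alone was -0.79 for Klf4 (SE 0.17, edgeR adjusted p = 0.579) and -0.38 for Fosb (SE 0.11, edgeR adjusted p = 0.601). With TPA the same genes had 0.12 (SE 0.16) and -0.07 (SE 0.11). Il1rap had 0.18 (SE 0.07) with zinc and 0.30 (SE 0.07, edgeR adjusted p = 0.482) with TPA. Fos had -0.16 (SE 0.17) and 0.03 (SE 0.17), Npas4 -0.31 (SE 0.15) and 0.28 (SE 0.15), and Nfkbiz 0.26 (SE 0.09) and 0.06 (SE 0.09). A p that misses the threshold does not show that the groups were alike.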

How the data were processed

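Per the labels' protocols, polyadenylated RNA was made into stranded libraries. Per the submitters' processing notes, reads on build mm10 passed through HISAT2 2.1.0, Trimmomatic 0.36, featureCounts and SAMtools 1.3.1 (no order is given), with DESeq2 1.14.1 in R 3.3.0. Strand use in counting is not given in the sources, so overlapping and antisense genes could share reads. The authors deposited whole-number gene counts for 24419 genes, TPM (counts divided by gene length and rescaled per library), and tables of their own comparisons. In the latter the deposited columns are a p-value and adjusted p-value, a Wald score, a shrunken log2 fold change and SE, and the mean normalized signal. In the authors' deposited table used here, 27 symbols are not in the counts table and were not used.

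Counts were the only values tested. After edgeR's default filter, 14411 genes with 99.98% of counts were fitted in 1 edgeR 4.0.16 quasi-likelihood model (R 4.3.3; default prior) of all 20 libraries with 4 group means, TMM factors and no block. Benjamini-Hochberg adjustment ran over all genes, with a threshold of 0.05. CPM used TMM-scaled totals, and log2 CPM a prior count of 2; SE is the log2 fold change divided by the square root of F. A count of 3 was 0.0733 to 0.0844 CPM in the 10 libraries, which covers counting error only. The model was tested on simulated counts. The verbs rose, fell and changed refer to adjusted calls.

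The members and the gene lists were chosen with earlier results of these data known. The named genes are up to 10 risers and 10 fallers among the calls (at least 1 CPM on average), the 5 smallest p-values on each side among the rest, 21 fixed early genes, up to 2 members of each list with the smallest p, and the genes called in the authors' table, 62 in all; others are marked as named after their values were seen. Alternatives were DESeq2's size factors, library size alone, 2 other filters, the 10 libraries alone, the replicate number as a block, DESeq2 1.42.0, limma 3.58.1 voom with and without library weights, and each library left out; edgeR's robust prior was added after seeing the data. Promoter sequences are RefSeq's. Nfkbiz had no entry matched.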

Additional observations from a re-analysis of the deposited data

Results flagged for a closer look

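Of 124 combinations of named gene and group, 9 had a library whose gap to its nearest neighbour took up over 0.71 of the group's range. Chance flags about 1 in 20 groups. In glutamate, Egr3 was 49.7 CPM in replicate 5 against 29.5 to 31.2 in the others, and Grm7, a metabotropic glutamate receptor, was 56.1 CPM there against 43.2 to 46.3. Nr4a2 was 20.5 CPM in glutamate 5 against 31.2 to 34.1, and Spry4 was 12.1 CPM against 24.5 to 27.3. Gadd45g was 24.3 CPM in glutamate 4 against 13.5 to 15.1. Hsp90aa1, a cytosolic chaperone, was 1282 CPM in glutamate 3 against 1375 to 1410.2. In control, Bhlhe40 was 12.3 CPM in replicate 4 against 14.1 to 14.7, Ier2 was 12.9 CPM there against 13.5 to 13.6, and Junb was 22.8 CPM in replicate 5 against 17.9 to 19.2.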

How the results depend on the processing

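The count of 6 genes was 3 with the 10 libraries fitted alone, 14 with DESeq2 and 59 with limma-voom and library weights, and 3 with the robust prior, chosen after seeing the data; the cause was not tested. It ran from 4 to 6 when each library was left out in turn. The replicate number as a block gave 5 genes, and 2 with the block and the 10 libraries alone. Deviations of same-numbered control and glutamate libraries correlated at -0.052 to 0.12 over genes. Low correlations cannot show whether equal numbers share a preparation, and this was not tested. Same-numbered glutamate and zinc libraries correlated at 0.024 to 0.5, and glutamate and TPA libraries at -0.07 to 0.2. Klf4 and Fosb passed under every setting run. Npas4 and Il1rap were each lost in 8 of 10 leave-one-out fits. Homer1 changed sign in 5 of these fits, within -0.0111 to 0.0225. The Fos difference of TPA minus glutamate was 0.034, and -0.0926 to 0.164 as each glutamate library was left out; it was -0.0926 without glutamate 5. With 5 libraries a group and the spread of glutamate 4 and 5, small changes may have gone uncalled.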
